A study of Homo sapiens with 12 samples.

Results

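The arginine (Arg) codons are the 6 of 61 sense codons that the deposited occupancy tables assign to Arg, and they were taken from every one of the 12 libraries by that assignment alone. They fall into 2 boxes: the 4-codon box CGN, which holds CGU, CGC, CGA and CGG, and the 2-codon box AGR, which holds AGA and AGG. The libraries come from ribosome profiling, which sequences the mRNA pieces shielded by single ribosomes (monosomes), and from disome profiling, which does the same for pieces shielded by a pair of stacked ribosomes. The cells were a human embryonic kidney line, HEK293 in the labels and HEK-293T in the methods, used as the unedited wild type (WT) or after CRISPR-Cas9 had deleted THUMPD1 (KO). KO cells had been sorted in bulk and then as single cells, so KO libraries may descend from few clones, and all groups were lysed in cycloheximide. There were 4 WT and 4 KO monosome libraries and 2 WT and 2 KO disome libraries. Nothing in the labels says that libraries of a group came from separate cultures, so p-values measure only the spread between these libraries.

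Arg is one of the amino acids whose codons are split over separate boxes read by different tRNAs. The tRNA gene with anticodon ACG is transcribed with an A at the wobble position, which the deaminase ADAT2/ADAT3 turns into inosine. Inosine pairs with U, C and A, so this tRNA can read CGU, CGC and CGA, the last through a purine-purine pair. A tRNA with anticodon UCG also reads CGA, one with CCG reads CGG, and UCU and CCU serve AGA and AGG. THUMPD1 is the adapter that brings NAT10 to the tRNAs of Leu and Ser for N4-acetylcytidine, and Arg tRNAs are not among its known targets.

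The 5 anticodons that serve the Arg codons are each shown by 1 gene, because the boxes are defined by them. The sequences were read from hg38 at the places RefSeq gives for GRCh38, 5′ to 3′, as DNA, with the anticodon in capitals. The ACG gene lies at chr6:26328140-26328212 on the plus strand, the TCG gene at chr15:89335073-89335145 on the plus strand, the CCG gene at chr6:28742952-28743024 on the minus strand, the TCT gene at chr1:159141611-159141684 on the minus strand and the CCT gene at chr17:75033906-75033978 on the plus strand.
TRR-ACG1-1: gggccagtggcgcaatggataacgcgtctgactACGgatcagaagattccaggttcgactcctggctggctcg
TRR-TCG1-1: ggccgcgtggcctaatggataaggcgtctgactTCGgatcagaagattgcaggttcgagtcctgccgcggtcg
TRR-CCG1-1: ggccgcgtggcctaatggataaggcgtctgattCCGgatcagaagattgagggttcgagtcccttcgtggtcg
TRR-TCT4-1: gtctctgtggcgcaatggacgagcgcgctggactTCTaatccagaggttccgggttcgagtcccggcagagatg
TRR-CCT1-1: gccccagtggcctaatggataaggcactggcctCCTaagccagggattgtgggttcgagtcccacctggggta
The TCG and CCG genes, which serve CGA and CGG, differed at 8 of 73 positions, and the ACG and TCG genes, which both serve CGA, at 13 of 73. All 26 Arg tRNA genes read here could be given a strand. Of the TCT genes, 5 of the 6 read were longer than 74 bases. For each anticodon the gene shown is the first by name of at most 74 bases. The TCT gene shown is thus the exception among its 6 and need not stand for the others.

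Each value is a relative codon occupancy, a linear ratio in which a codon of average occupancy in its library lies near 1. The study places it at the ribosomal A site, the site that receives the incoming aminoacyl-tRNA, and in disomes at that of the leading ribosome. It compares codons within a library and is no amount of translation. Both tables were normalised separately, so a monosome level and a disome level are set side by side without a test. No value was 0, the depth behind the values is unknown, and the loss of THUMPD1 cannot be checked from tables of codons. Mean occupancies per library ranged from 0.949 to 1.00.

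CGA was the Arg codon with the highest occupancy in all 12 libraries. In WT monosomes it stood at 1.37, 1.50, 1.36 and 1.31, with a mean of 1.38 ± 0.0825 (SD, n = 4). In KO monosomes it stood at 1.27, 1.39, 1.35 and 1.28, with a mean of 1.32 ± 0.0563 (SD, n = 4). The 2 genotypes overlapped. In disomes CGA stood at 1.99 and 1.88 in WT and at 1.45 and 1.48 in KO. Both KO libraries lay below both WT libraries, as was so for 23% of all codons. The CGA means were 1.94 ± 0.0822 in WT and 1.47 ± 0.0171 in KO (SD, n = 2 each). Among all 61 codons CGA ranked between 2 and 6 in WT monosomes and between 5 and 9 in KO monosomes. It ranked 2 and 3 in the WT disome libraries and 5 in both KO disome libraries. The codon above all others in the mean of each group was GAA, a Glu codon, at 2.36 ± 0.164 in WT monosomes and 2.76 ± 0.478 in WT disomes.

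The codons that share the inosine-bearing tRNA with CGA sat much lower. CGU was at 0.856, 0.883, 0.920 and 0.902 in WT monosomes and at 0.863, 0.867, 0.844 and 0.894 in KO monosomes, and the groups overlapped. In disomes CGU was at 0.535 and 0.835 in WT and at 0.807 and 0.782 in KO. The WT pair lay further apart than the same-genotype disome pair of any other Arg codon, and the KO pair fell between them. CGC, the partner that forms the inosine-cytidine pair, was at 0.843, 0.911, 0.972 and 0.872 in WT monosomes and at 0.896, 0.929, 0.881 and 0.881 in KO monosomes. In disomes CGC was at 0.767 and 0.672 in WT and at 0.851 and 0.779 in KO, with no overlap. Of all codons 29.5% likewise had both KO disome libraries above both WT disome libraries. CGG, which inosine does not read, was at 0.888, 0.979, 0.906 and 0.858 in WT monosomes and at 0.799, 0.996, 0.892 and 0.907 in KO monosomes. In disomes it was at 0.762 and 0.960 in WT and at 0.766 and 0.812 in KO.

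In the AGR box, AGA was the higher codon in all 12 libraries. It was at 0.979, 0.972, 0.978 and 1.02 in WT monosomes and at 0.976, 0.967, 0.978 and 0.982 in KO monosomes, the narrowest KO group of the 6 codons with an SD of 0.0062. In disomes AGA was at 1.19 and 1.07 in WT and at 1.31 and 1.02 in KO. AGG was at 0.837, 0.865, 0.943 and 0.892 in WT monosomes and at 0.832, 0.894, 0.926 and 0.959 in KO monosomes. In disomes AGG was at 0.703 and 0.826 in WT and at 0.869 and 0.788 in KO. AGA exceeded AGG by 0.16 ± 0.0755 on the log2 scale in WT monosomes (SD, n = 4) and by 0.57 ± 0.268 in WT disomes (SD, n = 2).

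**Figure D1:**
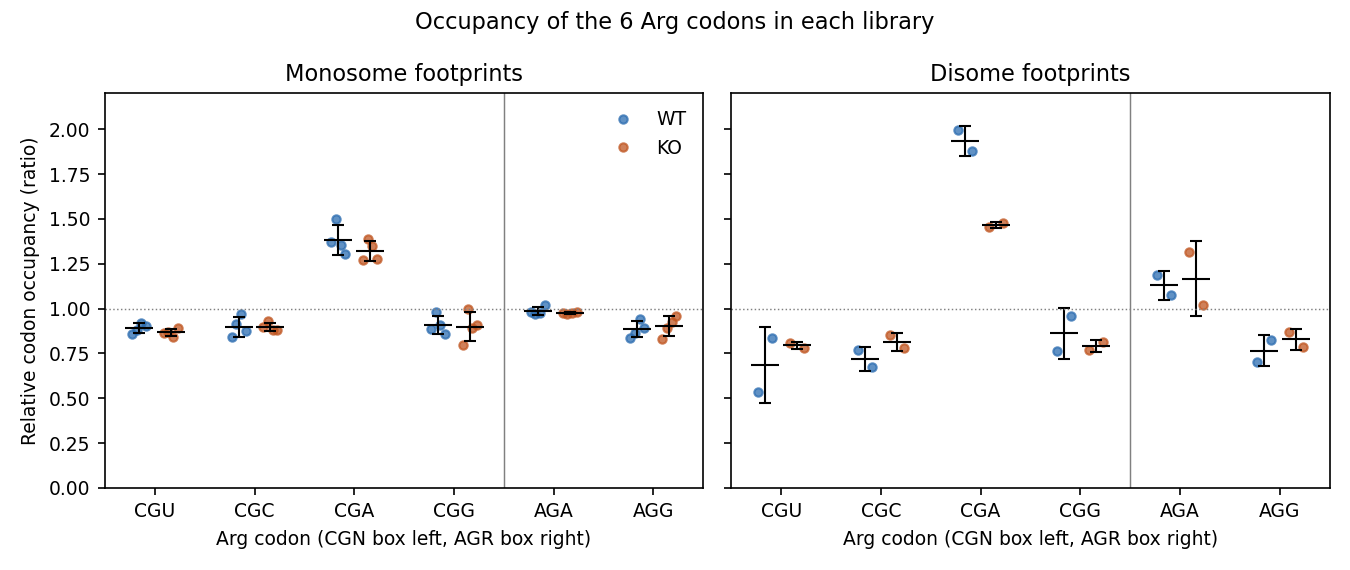
Relative occupancy (ratio, y axis) of the 6 Arg codons (x axis) in each monosome library (left, 4 WT and 4 KO) and disome library (right, 2 WT and 2 KO); points are libraries, black bars the mean and SD, the dotted line marks 1 and the vertical line parts the boxes. CGA lies above the other Arg codons in all 12 libraries. In disomes its KO libraries (1.45 and 1.48) lie below its WT libraries (1.99 and 1.88), as do those of 23% of all codons.

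Of the order of the 6 codons, the top place was the same in every group. Neighbours were taken to differ beyond their spread where the difference within a library had 1 sign in every library of the group and its mean exceeded its SD. CGA lay above AGA by this rule in each of the 4 groups, by 0.49 ± 0.109 (log2, SD, n = 4) in WT monosomes, 0.44 ± 0.0682 in KO monosomes, 0.78 ± 0.0418 in WT disomes and 0.34 ± 0.274 in KO disomes. In WT monosomes the order went on with AGA and CGG, then CGC, CGU and AGG, and no further neighbours differed beyond their spread. In KO monosomes AGA exceeded AGG by 0.11 ± 0.0842, and below that AGG, CGC, CGG and CGU could not be ordered. In WT disomes AGA exceeded CGG by 0.40 ± 0.339 and CGG exceeded AGG by 0.17 ± 0.0710, while AGG, CGC and CGU could not be ordered. In KO disomes AGA exceeded AGG by 0.49 ± 0.157 and AGG exceeded CGC by 0.024 ± 0.0096, while CGC, CGU and CGG could not be ordered. With 2 libraries per group, the disome orders rest on 2 differences each.

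The usage of the codons is set beside their occupancy as background. Over 19535 canonical human coding sequences of the GENCODE annotation, AGA made up 21.6% of Arg codons, AGG 21.0%, CGG 20.3% and CGC 18.4%. CGA made up 10.8% and CGU 7.91%. CGU and CGA, at places 61 and 58 of 61 in usage, were thus the rarest Arg codons. The CGN box held 57.5% of Arg codons and the AGR box 42.5%.

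The box comparison asks whether the partly inosine-read box as a whole differs from the AGR box. In each library the mean log2 occupancy of AGR was subtracted from that of CGN, as a description with no test. In monosomes CGN was above AGR in 8 of 8 libraries, by 0.10 ± 0.0662 in WT and by 0.063 ± 0.0585 in KO (SD, n = 4 each). In disomes the difference was above 0 in 1 library of each genotype, with means of 0.026 ± 0.0926 in WT and −0.074 ± 0.167 in KO (SD, n = 2 each). As groups, the KO and WT libraries overlapped in both kinds of footprint. Within same-numbered monosome pairs the difference was lower in KO in 4 of 4, by −0.034, −0.042, −0.061 and −0.013, with a mean of −0.037 ± 0.0197 (SD, n = 4 pairs). The labels state no pairing, and deviations in these data do not tell replicates 3 and 4 apart. The count and the SD therefore depend on the numbering. WT replicate 4 (0.024) lay below KO replicate 3 (0.032), so exchanging KO replicates 3 and 4 would reverse that pair.

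The sign of the box difference in monosomes rested on CGA. Without CGA, the other 3 codons of the box lay below AGR, by −0.055 ± 0.0543 in WT and −0.081 ± 0.0575 in KO, with 1 of 8 monosome libraries above 0. In disomes this difference was −0.32 ± 0.154 in WT and −0.29 ± 0.158 in KO, below 0 in all 4 libraries. Leaving out CGA was a choice made after its level had been seen. Codons that end in the same base were also set against each other across the boxes. CGG and AGG, which both end in G, differed by 0.037 ± 0.116 in WT monosomes and −0.0090 ± 0.111 in KO monosomes, smaller than the spread between libraries. In disomes CGG minus AGG was 0.17 ± 0.0710 in WT and −0.068 ± 0.160 in KO.

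**Figure D2:**
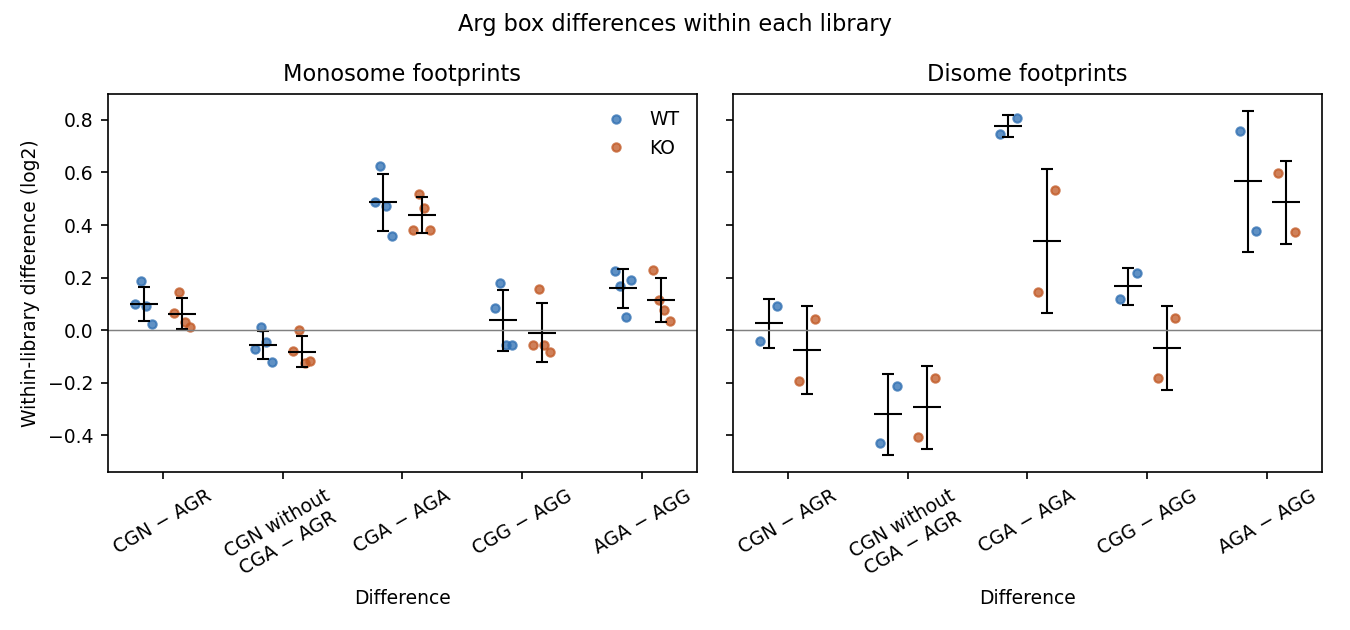
Within-library differences (log2, y axis) between the CGN and AGR boxes, with and without CGA, and between single codons (x axis), in monosomes (left) and disomes (right); points are libraries (blue WT, orange KO) and black bars the mean and SD. CGN minus AGR lies above 0 in all 8 monosome libraries, and without CGA it lies below 0 in all 4 disome libraries.

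The next comparison stays inside the inosine-read box. CGA was set against the mean of CGU and CGC, the other codons that inosine can read. In WT monosomes CGA was higher by 0.63 ± 0.105 on the log2 scale (SD, n = 4), a 1.55-fold ratio, and in KO monosomes by 0.58 ± 0.0633, a 1.50-fold ratio. In WT disomes the excess was 1.64 and 1.33, with a mean of 1.48 ± 0.221 or 2.79-fold. In KO disomes it was 0.81 and 0.92, with a mean of 0.87 ± 0.0777 or 1.82-fold. Both KO disome libraries had a smaller excess than both WT disome libraries, which also held for the Thr box described below. The disome difference between KO and WT was −0.61, and it became −0.43 with equal spread and −0.31 with quantile normalization. The monosome groups overlapped, and the excess was lower in KO in 3 of 4 same-numbered pairs. That count depends on the numbering of replicates 3 and 4, which these data do not tell apart.

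The same measure was taken in the 7 other boxes that human inosine tRNAs read, those of Ala, Pro, Thr, Val, Ser, Leu and Ile. In monosomes the Arg excess took place 2 of 8 by mean in either genotype. It came after Ile, whose AUA exceeded the mean of its U- and C-ending codons by 0.76 ± 0.193 in WT and 0.79 ± 0.116 in KO. It came before Leu, whose CUA had an excess of 0.35 ± 0.0984 in WT and 0.45 ± 0.0896 in KO. In 1 of 8 monosome libraries Arg was first. In disomes Arg was first of the 8 boxes in all 4 libraries. The next box was Thr in WT disomes, with an excess of 0.56 ± 0.400 for ACA, and Ile in KO disomes, with 0.65 ± 0.202 for AUA. The Thr excess was smaller in both KO disome libraries (0.10 and 0.21) than in both WT disome libraries (0.85 and 0.28). A lower excess in KO disomes without overlap was thus not particular to Arg. In the remaining boxes the 2 genotypes overlapped in disomes. Ser lay at the other end in monosomes, where UCA was below its partners by −0.23 ± 0.281 in WT. The mean A-ending excess in WT monosomes ran from −0.23 for Ser to 0.76 for Ile.

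**Figure D3:**
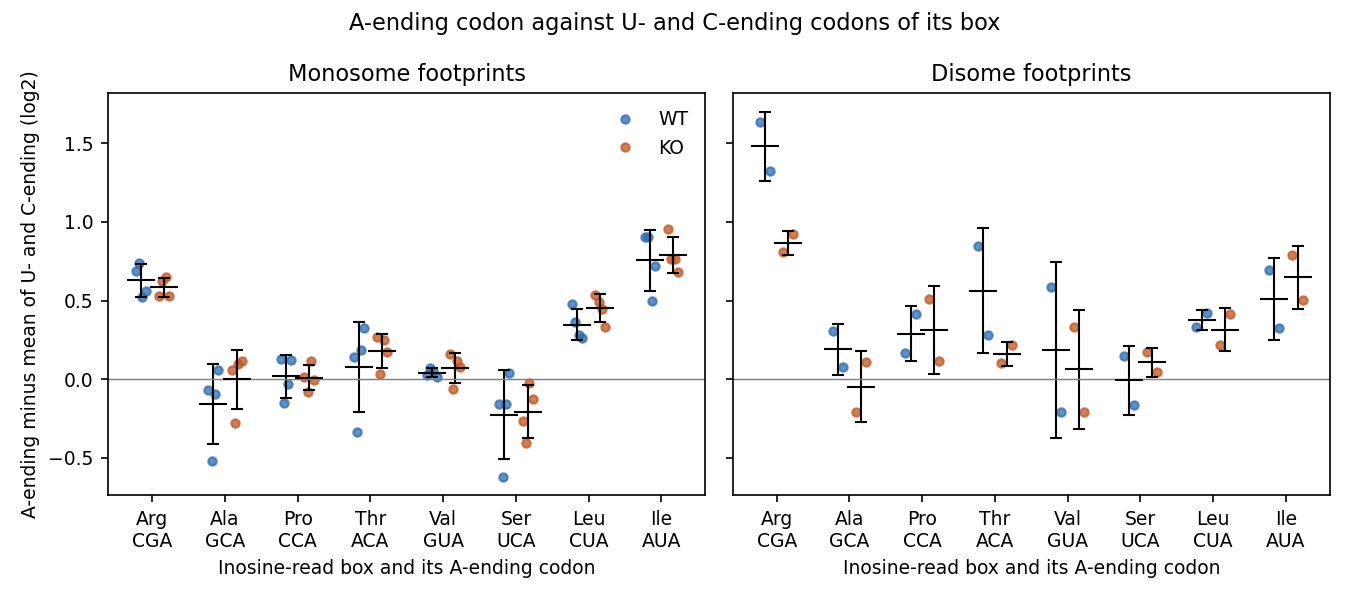
Occupancy of the A-ending codon minus the mean of the U- and C-ending codons of its box (log2, y axis) for the 8 inosine-read boxes (x axis), in monosomes (left) and disomes (right); points are libraries (blue WT, orange KO) and black bars the mean and SD. Arg is second to Ile in the monosome means and first in all 4 disome libraries, where the WT values are 1.64 and 1.33 and the KO values 0.81 and 0.92.

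The span from the highest to the lowest codon put this in the scale of a whole family. For Arg it was 0.67 ± 0.0979 in WT monosomes and 0.64 ± 0.0689 in KO monosomes on the log2 scale (SD, n = 4 each). In disomes it was 1.69 ± 0.294 in WT, with the top codon between 2.79-fold and 3.72-fold above the bottom one, and 0.92 ± 0.00062 in KO (SD, n = 2 each). Leu and Ser also have 6 codons each. Their spans were 0.56 ± 0.203 and 0.82 ± 0.292 in WT disomes, below the Arg span in each, and 0.39 ± 0.0804 and 0.62 ± 0.350 in WT monosomes. In KO they were 0.43 ± 0.117 and 0.53 ± 0.0577 in disomes, and 0.61 ± 0.195 and 0.58 ± 0.240 in monosomes. Arg, Leu and Ser alike thus had lower mean spans in KO than in WT disomes. Over all 61 codons the SD of log2 occupancy was 0.556 and 0.455 in WT disomes and 0.426 and 0.438 in KO disomes.

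KO and WT were then compared codon by codon, with limma on log2 occupancy over all 61 codons and Benjamini-Hochberg adjustment. In monosomes 4 of 61 codons passed an adjusted p of 0.05 (6.56%), all of them Leu codons and all higher in KO. With same-numbered libraries as a replicate block 8 codons passed. None of the 6 Arg codons passed in either fit, and none had an unadjusted p under 0.05 in the first. Their changes ran from −0.065 for CGA (SE 0.0572, limma adjusted p = 1.00) to 0.029 for AGG (SE 0.0602, limma adjusted p = 1.00), with a median of −0.016 beside −0.0024 over all codons. The 95% interval for CGA was −0.19 to 0.063. CGA was lower in the KO library of 4 of 4 same-numbered pairs, by −0.11 to −0.0070, and its limma adjusted p with the block was 0.301. Both depend on the numbering of replicates 3 and 4, which these data do not tell apart. With KO replicates 3 and 4 exchanged, WT replicate 4 (log2 0.385) would face a higher KO value (0.434). None of the 6 codons kept its KO libraries wholly above or wholly below the WT libraries in monosomes, where 6.56% of all codons lay wholly above and 3.28% wholly below.

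In disomes 0 of 61 codons passed in limma (0%), while 10 had an unadjusted p under 0.05, and CGA was the Arg codon among these. CGA had a change of −0.40 (SE 0.0996, limma unadjusted p = 0.00775, adjusted p = 0.236), a ratio of 0.758 between KO and WT with a 95% interval of −0.65 to −0.15 on the log2 scale. By size it was the codon with place 2 of 61 from the lowest change, and by p-value it also took place 2. It passed the threshold on the linear scale, with a limma adjusted p of 0.00695, and with a mean-variance trend and a robust prior, with 0.00461. With quantile normalization the change was −0.20. Over all alternatives its limma adjusted p ran from 0.00461 to 0.748. An exact permutation test of 2 against 2 libraries cannot go below p = 0.333, which is what CGA reached. Of all codons 23% had both KO libraries below both WT libraries, so that lack of overlap is common here.

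The other Arg codons had disome changes of 0.25 for CGU (SE 0.213), 0.18 for CGC (SE 0.118), −0.12 for CGG (SE 0.140), 0.038 for AGA (SE 0.150) and 0.12 for AGG (SE 0.125). None of these had an unadjusted p under 0.05, with limma adjusted p-values from 0.435 for CGC to 0.952 for AGA. CGC was the Arg codon with both KO libraries above both WT libraries, which 29.5% of all codons were. The value for CGU turned on 1 library. Without WT replicate 2 it was 0.57, and without WT replicate 1, which held the lowest CGU value of 0.535, it was −0.073. Each of these fits leaves 1 WT library, so it cannot measure the spread between WT libraries.

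The change in disomes was also set against the change in monosomes, in a limma fit of all 12 libraries in which each table keeps its own WT level. No codon of 61 passed (0%), and 3 had an unadjusted p under 0.05. CGA had the lowest p of all, with a difference of −0.33 (SE 0.115, limma unadjusted p = 0.0106, adjusted p = 0.372) and a 95% interval of −0.58 to −0.090. This fit takes 1 variance per codon for both kinds of footprint, and it treats the 12 libraries as independent. The methods select both footprint kinds by size after digestion, and whether same-numbered libraries share a lysate is not stated. With library weights per footprint kind, an alternative not planned in advance, CGA had a limma unadjusted p of 0.0233 and an adjusted p of 0.814. CGU had a difference of 0.29 (SE 0.175, limma adjusted p = 0.699), which became 0.61 without disome WT replicate 2, where 1 WT disome library is left. A different KO effect on CGA in the 2 kinds of footprint was therefore not shown at the threshold.

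**Figure D4:**
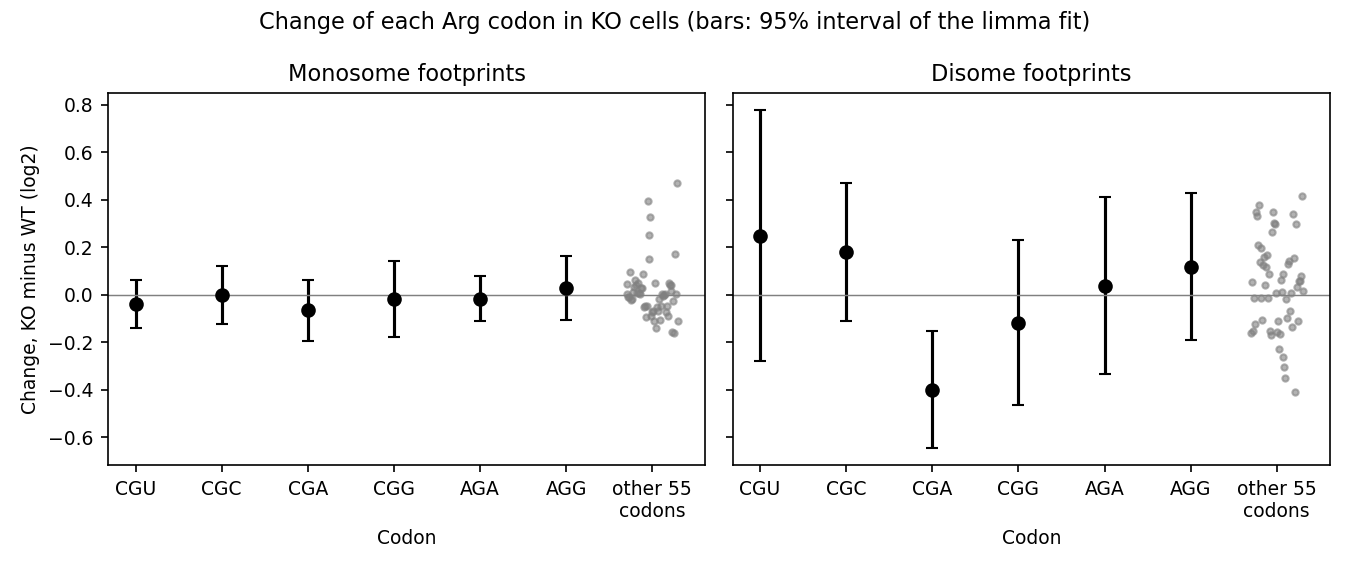
Change from WT to KO (log2, y axis) for the 6 Arg codons and the other 55 codons (x axis) in monosomes (left) and disomes (right); black points are Arg codons with the 95% interval of the limma fit and grey points the other codons without intervals. In monosomes the 6 Arg codons lie within 0.065 of 0, and in disomes CGA lies at −0.40 with an interval that leaves out 0.

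The A-ending codons of the 8 inosine-read boxes were counted in the same fits. In monosomes 1 of 8 passed and was higher in KO, the Leu codon CUA (0.40, SE 0.0793, limma adjusted p = 0.00979), beside 4 of 61 codons in all (6.56%). The median change of the 8 was 0.045. In disomes 0 of 8 passed in limma. An unadjusted p under 0.05 was found for 3 of the 8, beside 10 of 61 codons in all, with CGA downward and UCA (0.34, SE 0.110) and CUA (0.26, SE 0.0991) upward. The median of the 8 in disomes was −0.055, beside 0.042 over all codons.

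The codons whose pattern over the 8 monosome libraries was most like that of each Arg codon were named by Pearson's r of log2 occupancy, as a description. For CGA they were the Ala codons GCG (r = 0.815) and GCC (r = 0.812) and the Asp codon GAU (r = 0.771). For CGU it was GUU of Val (r = 0.764), for CGC it was CCC of Pro (r = 0.712) and for CGG it was GCU of Ala (r = 0.834). For AGA it was AAA of Lys (r = 0.825) and for AGG it was UUC of Phe (r = 0.788). Among the Arg codons CGA was most like CGG (r = 0.761). Each named codon was picked as the highest r over all other codons with 8 libraries, so a high r is partly due to that choice. These points share the libraries and their normalisation.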

How the data were processed

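The authors clipped adapter and random bases from the reads, discarded matches to ribosomal and noncoding RNA, mapped the rest uniquely with STAR to canonical transcripts of hg19, and computed occupancies with custom Python and R scripts. The deposited values are ratios, a relative codon occupancy per library for 61 codons. The denominator, a coverage minimum and a read length filter are not given in the sources used here.

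The codons and lists were chosen with earlier results of these data known. Named codons were the 6 Arg codons, the A-ending codons of inosine-read boxes, the top codon of each library group and the codons most alike in pattern (3 for CGA, 1 for the others). UCG and other anticodon roles are textbook background.

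Values were taken to log2 without a pseudocount and fitted with limma (3.58.1, run under R 4.3.3) on each table (KO against WT), and on both tables for the difference of changes, with Benjamini-Hochberg adjustment over 61 codons at 0.05. The fit was tested on simulated data, in which several codons were changed at once and noise was drawn independently for each library. The rates below hold for that setting and need not hold for 1 codon changed alone. A log2 change of 0.4 was recovered in 30.7% of cases in disomes and in 88% in monosomes. A change of 0.1 was recovered in 0% and 1.17%, so a codon that did not pass may still have changed by such amounts. Box differences were taken within each library and not tested. Same-numbered monosome libraries deviated together from their group means (r = 0.669, 0.872, 0.534 and 0.686 over 61 codons), so the fit with a replicate block was read as paired there, on the data alone. The disome correlation was 0.0212, so disome numbers were not read as pairs. WT replicate 3 correlated higher with KO replicate 4 (0.776) than with KO replicate 3. WT replicate 4 correlated about equally with KO replicates 3 (0.683) and 4 (0.686), so these 2 pairs are not settled by the data. No 2 libraries held identical values. Alternatives covered centring, spread, quantile normalization, base composition, a pseudocount of 0.1, the linear scale, variance priors, a filter keeping 45 codons, and each library left out. For the difference of changes, library weights per footprint kind were also used. Codon usage and tRNA genes were read from hg38, and no coordinate was converted between builds. tRNA genes on some chromosomes were not used here.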

Additional observations from a re-analysis of the deposited data

Results flagged for a closer look

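AGA in WT monosomes had 1 library apart from the other 3, with 0.979, 0.972 and 0.978 against 1.02 in replicate 4. Replicate 4 was separated from its nearest neighbour by 0.851 of the span of all 4, which is past the critical ratio of Dixon's test. It was the 1 such group among 16 groups of 4 libraries examined, and chance flags about 1 in 20, or 0.8 of these.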

How the results depend on the processing

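The count of monosome codons past the threshold was 4, and it became 8 with a replicate block, 10 with a replicate block and base composition, and 0 with the exact permutation test, which cannot go below p = 0.0286 for 4 against 4 libraries. That floor is reached only where the groups lie wholly apart, as for the 6.56% of codons higher and 3.28% lower in KO. With so few at the floor, no codon could pass after adjustment over 61 codons, so the exact test decides nothing here. No Arg codon passed in monosomes under the other alternatives run. In disomes the count of 0 became 1 on the linear scale and 4 with a robust prior that follows the mean-variance trend. The 1 Arg codon among these was CGA in both, with −0.47 as a difference of ratios on the linear scale and −0.40 with the trend. With 1 library left out, where a lone library is assumed to vary like the others, the disome count ran from 0 to 3 and the Arg count from 0 to 1, and the highest came without WT replicate 2, when CGU passed. The count for the difference between disome and monosome changes ran from 0 to 2 and its Arg count from 0 to 1, again without disome WT replicate 2. In the monosome and disome fits the replicate block changed no call of an Arg codon, and it was not run for the difference of changes.

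Of 323 alternative values of single Arg codon changes, 294 kept their sign and side of the threshold and 25 changed sign. In monosomes CGC turned to 0.0037 with median centring and to 0.041 with base composition, with and without the block, and CGG to 0.027 with base composition in both fits. In disomes AGA turned to −0.057 with median centring and −0.0017 with centring on the codons of other amino acids. In the difference of changes AGA turned to −0.048 and AGG to −0.011 with median centring. Over single libraries left out, monosome CGC ran from −0.033 to 0.035, CGG from −0.068 to 0.038 and AGG from −0.00067 to 0.068. Over left-out libraries in disomes, CGU ran from −0.073 to 0.57, CGG from −0.28 to 0.050 and AGA from −0.14 to 0.22. For the difference of changes, CGU ran from −0.035 to 0.61, CGG from −0.27 to 0.067, AGA from −0.13 to 0.23 and AGG from −0.027 to 0.21. CGA kept its sign in every alternative run, and its disome change ran from −0.49 to −0.20 over those that kept all libraries.

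Leaving out CGA was an alternative chosen after seeing the data. Without CGA, the box difference CGN minus AGR was −0.055 and −0.081 in WT and KO monosomes and −0.32 in WT disomes. With CGA, both monosome means were above 0. The WT disome mean with CGA was 0.026 ± 0.0926 (SD, n = 2), with 1 library above 0. In KO disomes the box difference was −0.29 without CGA and −0.074 with it. On the linear scale it was 0.15 in WT disomes. The CGA excess over CGU and CGC was 0.96 in KO disomes with quantile normalization, and its KO minus WT difference of −0.61 became −0.43 with equal spread and −0.31 with quantile normalization. The cause of these moves was not tested. Depth per codon is unknown, and 2 disome libraries per genotype limit the precision.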
